A study of Mus musculus with 34 samples.

Results

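Pulmonary neuroendocrine cells are rare epithelial cells of the airway lining that sense stimuli and release peptides and amines from dense-core granules. The granins are the acidic proteins that fill those granules, prohormone convertases cut the peptide precursors inside them, and synaptophysin marks small vesicles. The 9 genes described here are Chga, Chgb and Scg2 (granins), Calca (the precursor of calcitonin and of the neuropeptide CGRP), Scg5 (the chaperone 7B2 of a prohormone convertase), Syp (synaptophysin), Resp18 (a granule protein of endocrine cells), Pcsk1 (a prohormone convertase) and Insm1 (a zinc-finger transcription factor of neuroendocrine cells). They were taken by symbol from the knockout count table and make up 9 of its 24223 genes.

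The study followed the tracheal lining of Gprc5a-/- mice, which lack a gene of airway epithelium whose loss is linked to lung tumours, through exposure to NNK, a tobacco-specific nitrosamine that causes lung tumours. Epithelium was brushed from the trachea of 28 knockout mice, 1 library each: 6 before NNK (baseline), 6 at the end of exposure (t0), and 5, 6 and 5 at 2, 4 and 6 months after it (t2, t4, t6). The 22 exposed mice had received 50 mg per kg of NNK by intraperitoneal injection 3 times a week for 8 weeks, and month 6 is the time of lung adenocarcinoma development in the submitters' design. A separately processed table holds 6 unexposed wild-type mice. All samples carry an age of 6 to 8 weeks in their labels, and the baseline mice are the only unexposed knockouts. Age and time after exposure therefore cannot be told apart. In every comparison with baseline, t0 included, NNK also cannot be told apart from age or from the injections. All 28 of these mice, baseline included, are labelled Gprc5a-/-, so no effect of the knockout can be read from them.

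Library totals lay between 15625276 and 37609816 estimated counts. The targeted gene Gprc5a was at 0.131 to 2.88 CPM (a gene's share of the library's counts, scaled to a fixed total) in 27 knockout libraries and at 8.06 CPM in the library of t2 mouse 339, which also had the fewest detected genes (14475, against 16892 to 19082 in the others). Haemoglobin genes took 22.8% of t0 mouse 357, 25.5% of t4 mouse 371 and 15.3% of t6 mouse 349. Without these 4 libraries, 7, 4, 7 and 3 neuroendocrine genes were called against baseline at t0, t2, t4 and t6. With all libraries the counts were 7, 5, 7 and 2. In brushed tissue, more neuroendocrine cells and more RNA per cell cannot be told apart, nor fewer cells from less RNA per cell.

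Granin and convertase genes are known to hold cAMP response elements, and basic helix-loop-helix factors bind E-boxes. A promoter window of 250 bases before to 50 bases after the start was found for 8 of the 9 genes in RefSeq (GRCm38.p6), all but Insm1. The cAMP response element TGACGTCA, searched on both strands, was in 3 of the 8 (Chgb, Scg2 and Pcsk1), against 1.79% of 32851 promoters of the same length. It began 72, 68 and 78 bases before the RefSeq start of these genes, which for Chgb and Scg2 puts it inside or at the edge of the gene span in the authors' table. The E-box CAGCTG, was in 4 of the 8 (Chga, Chgb, Calca and Resp18), against 16.3% of promoters, and 2 copies stood in Chga, 179 and 116 bases before its start. The windows below show exact matches in capitals, 5′ to 3′ on the strand of the gene. They hold the cAMP response element of Chgb, Scg2 and Pcsk1, at a similar distance in each, and the E-boxes of Chga and Resp18. The 2 elements do not divide the genes, since the E-box of Chgb lies 31 bases after its start, outside its window. Near matches were not searched and stand in lower case. Their places are chr2:132781559-132781588 (plus strand) for Chgb, chr1:79440076-79440105 (minus strand) for Scg2, chr13:75089722-75089821 (plus strand) for Pcsk1, chr12:102554756-102554905 (plus strand) for Chga and chr1:75278456-75278515 (minus strand) for Resp18. A match describes letters and is no evidence of binding.
Chgb: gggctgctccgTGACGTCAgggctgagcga
Scg2: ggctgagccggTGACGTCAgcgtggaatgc
Pcsk1: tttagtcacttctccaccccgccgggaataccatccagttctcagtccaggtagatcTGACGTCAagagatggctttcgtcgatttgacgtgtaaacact
Chga: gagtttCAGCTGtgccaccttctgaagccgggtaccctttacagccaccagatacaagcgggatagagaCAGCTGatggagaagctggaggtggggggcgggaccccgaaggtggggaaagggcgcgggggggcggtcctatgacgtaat
Resp18: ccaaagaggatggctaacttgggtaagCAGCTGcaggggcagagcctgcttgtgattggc

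Most of the 9 genes were higher than at baseline at the end of NNK exposure. Chga and Scg2 were higher in every exposed group, and none of the 9 was called lower than baseline. The 9 were chosen with earlier results of these data known, so their counts beside shares of all genes are a description. Of 11 other tested marker genes of neuroendocrine cells, 0 rose and 3 fell at t0. At t0, t2, t4 and t6, 22.3%, 8.73%, 9.56% and 4.29% of all genes tested were called lower. A gene was called where edgeR's quasi-likelihood test gave a Benjamini-Hochberg adjusted p under 0.05 over the 14847 genes tested. All 9 genes passed the filter of 1 CPM in at least 5 libraries, Resp18 only through exposed mice, since 0 of 6 baseline libraries reached that level. Chgb reached it in 2 baseline libraries, and Insm1 and Scg5 in 4 each, so these genes also needed exposed mice to pass. At the end of exposure 7 of 9 rose, where 23.3% of all genes tested did. After 2 months it was 5 of 9, where 11.2% did, and 3 of 9 (Chga, Calca and Scg2) without any 1 of baseline mice 344, 345, 352 and 356. Fitting only the baseline and t2 libraries called 2 (Chga and Calca). After 4 months it was 7 of 9, where 10% did, and after 6 months it was 2 of 9 (Chga and Scg2), where 4.54% did. The 2 genes called at no time were Scg5 and Pcsk1. The median log2 change of the 9 genes was 1.33, 1.32, 1.49 and 0.675 at the 4 times, and the median of all genes tested was 0.0182, 0.015, 0.00662 and -0.00714. These 4 comparisons share the 6 baseline libraries. Exposed and baseline values did not overlap, with the exposed mice higher, for 3, 1, 6 and 3 of the 9 genes in time order, against 13.1%, 5.59%, 5.75% and 4.66% of all genes. Only Chga and Scg2 were called higher at all 4 times, as were 1.57% of genes.

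**Figure D1:**
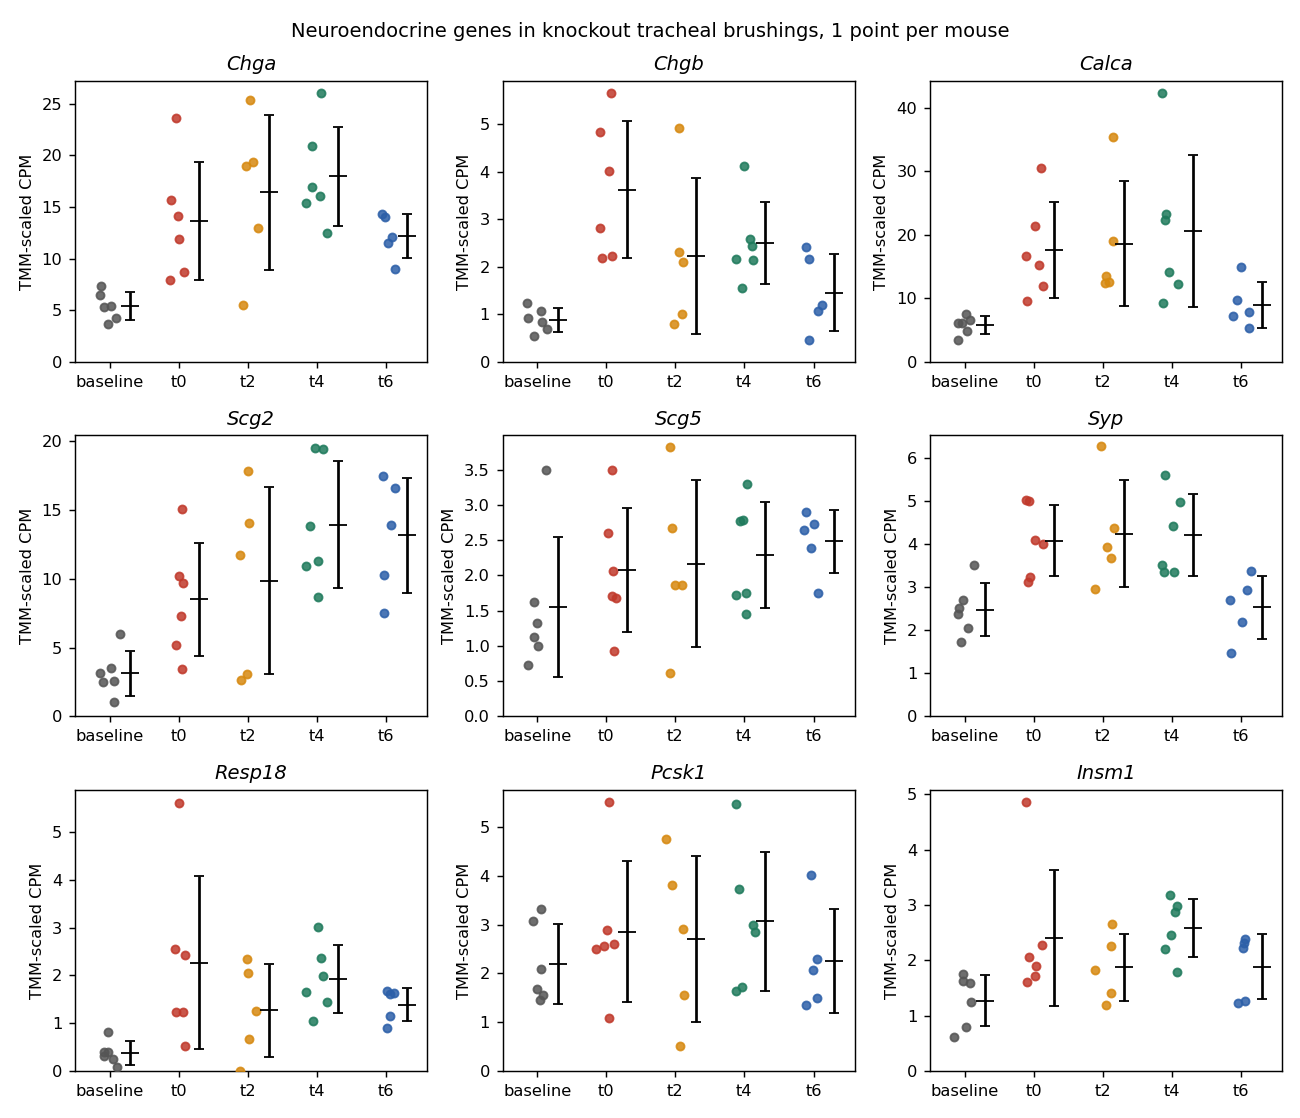
Level of each of the 9 genes in every knockout library, as TMM-scaled CPM, by group; points are mice and bars are the mean ± SD (n = 6, 6, 5, 6 and 5). Chga stands above the highest baseline mouse in 21 of 22 exposed mice, while Scg5 and Pcsk1 overlap baseline in every group.

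Among the granins, Chga at chr12:102554969-102565028 (mm10) is the classic granule marker of endocrine cells. Its baseline level ran from 3.71 through a median of 5.34 to 7.34 CPM. At t0 it ran from 7.95 through 13.0 to 23.6 CPM. The 5 mice at t2 had 5.49, 13.0, 18.9, 19.3 and 25.4 CPM. At t4 the level ran from 12.5 through 16.5 to 26.1 CPM, and the 5 mice at t6 had 9.002, 11.6, 12.1, 14.0 and 14.3 CPM. Every t0, t4 and t6 mouse lay above every baseline mouse, and of the t2 mice only mouse 360 fell within the baseline range. Chga rose by a log2 change of 1.33 ± 0.28 (SE, edgeR adjusted p = 0.00039) at exposure end. Later changes were 1.60 ± 0.30 (adjusted p = 0.00061), 1.73 ± 0.29 (adjusted p = 0.00017) and 1.17 ± 0.29 (adjusted p = 0.011) for months 2, 4 and 6, the last of them lost without the libraries of high thyroid marker content described with the other cell types.

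Scg2, whose product secretogranin II is cut into the peptide secretoneurin, lies at chr1:79434669-79440091. It ran from 1.02 through 2.84 to 5.99 CPM at baseline, where mouse 343 was the highest. It ran from 3.48 through 8.51 to 15.1 CPM at t0 and from 8.66 through 12.6 to 19.5 CPM at t4. The t4 mice were all above baseline, whereas t0 mice 357 and 367 were not. The mice at t2 had 2.62, 3.06, 11.7, 14.1 and 17.9 CPM, and those at t6 had 7.53, 10.3, 13.9, 16.6 and 17.4 CPM. The t2 group split, with mice 339 and 360 inside the baseline range and the other 3 above it. Scg2 rose by 1.45 ± 0.43, 1.66 ± 0.44, 2.16 ± 0.44 and 2.07 ± 0.45 on the log2 scale in time order (edgeR adjusted p = 0.0071, 0.0097, 0.0011 and 0.0035). Scg2 was the gene of the 9 with the highest fitted change at t4 after Resp18, and the highest at t6.

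Chgb, the second chromogranin, lies at chr2:132781278-132795073 and was low. It ran from 0.555 through 0.881 to 1.24 CPM at baseline, from 16 to 32 counts. At t0 it ran from 2.18 through 3.41 to 5.65 CPM, and at t4 from 1.55 through 2.30 to 4.12 CPM. Both groups lay wholly above baseline. The t2 mice had 0.797, 1.00, 2.09, 2.31 and 4.92 CPM, and the t6 mice had 0.460, 1.07, 1.19, 2.16 and 2.43 CPM. Both later groups overlapped baseline, and the highest t2 value was that of mouse 339. Chgb rose by 2.02 ± 0.44 (log2, edgeR adjusted p = 0.00043) by exposure end, by 1.33 ± 0.44 (adjusted p = 0.035) by month 2 and by 1.49 ± 0.43 (adjusted p = 0.016) by month 4. Its month 6 change was 0.71 ± 0.44 (adjusted p = 0.35). The t2 call was lost without any 1 of 6 libraries (baseline mice 344, 345, 352 and 356 and t2 mice 339 and 347), and the log2 change was 0.81 (adjusted p = 0.15) without mouse 339. The t2 and t4 calls were also lost without the libraries of high thyroid marker content (adjusted p = 0.095 and 0.062). Chgb needed exposed mice to pass the filter. With no filter its t0, t2 and t4 calls held (edgeR adjusted p = 0.00069, 0.05 and 0.025), at t2 only just under the threshold.

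Calca encodes the peptide most used to mark mouse airway neuroendocrine cells and lies at chr7:114631478-114636358. It ran from 3.48 through 6.13 to 7.50 CPM at baseline. It ran from 9.66 through 15.95 to 30.5 CPM at t0 and from 9.27 through 18.2 to 42.3 CPM at t4. The t2 mice had 12.5, 12.6, 13.5, 19.1 and 35.5 CPM. All 17 mice of t0, t2 and t4 lay above all 6 baseline mice. The t6 mice had 5.31, 7.17, 7.89, 9.70 and 14.9 CPM, of which 2 were inside the baseline range. Calca rose by 1.61 ± 0.35 (log2, edgeR adjusted p = 0.00046), 1.69 ± 0.36 (adjusted p = 0.0019) and 1.83 ± 0.35 (adjusted p = 0.00068) in the first 3 exposed groups, and its month 6 change was 0.64 ± 0.36 (adjusted p = 0.29). Calcb, which makes the second CGRP, neighbours Calca and resembles it in sequence, so reads shared between them make both values uncertain.

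Resp18, at chr1:75272202-75278381, had the highest fitted change of the 9 at t0 and was the sparsest, with 2 to 21 counts in the baseline libraries. It ran from 0.0731 through 0.349 to 0.812 CPM at baseline, from 0.519 through 1.84 to 5.60 CPM at t0 and from 1.04 through 1.83 to 3.02 CPM at t4. The t2 mice had 0, 0.664, 1.26, 2.05 and 2.34 CPM, the 0 being mouse 339, and the t6 mice had 0.890, 1.16, 1.60, 1.62 and 1.68 CPM. Every t4 and t6 mouse was above baseline. Resp18 rose by 2.59 ± 0.67 (log2, edgeR adjusted p = 0.0023) in the t0 group and by 2.35 ± 0.66 (adjusted p = 0.014) in the t4 group. Its change was 1.75 ± 0.67 (adjusted p = 0.064) at t2 and 1.89 ± 0.67 (adjusted p = 0.076) at t6, and both passed the threshold without t2 mouse 339. As the gene entered the test only through exposed mice, it was also fitted with no filter, where its t0 and t4 calls held (edgeR adjusted p = 0.0029 and 0.018). The t4 call was lost without the libraries of high thyroid marker content (adjusted p = 0.056).

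Syp, on the X chromosome at chrX:7638580-7653257, rose less. It ran from 1.73 through 2.44 to 3.52 CPM at baseline, from 3.12 through 4.04 to 5.01 CPM at t0 and from 3.35 through 3.98 to 5.61 CPM at t4. The t2 mice had 2.97, 3.68, 3.92, 4.38 and 6.28 CPM, and the t6 mice had 1.47, 2.19, 2.71, 2.93 and 3.37 CPM. All 4 exposed groups overlapped baseline. Syp rose by 0.71 ± 0.26, 0.77 ± 0.27 and 0.76 ± 0.26 on the log2 scale in the first 3 exposed groups (edgeR adjusted p = 0.024, 0.04 and 0.037), and its month 6 change was 0.03 ± 0.27 (adjusted p = 0.97). These calls were lost without single libraries (3, 7 and 8 of them in turn), with adjusted p up to 0.061, 0.086 and 0.085. They were also lost with no filter on low counts (adjusted p = 0.054, 0.074 and 0.078), and the t2 and t4 calls without the libraries of high thyroid marker content.

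Insm1, at chr2:146221997-146225019, ran from 0.622 through 1.42 to 1.75 CPM at baseline, from 1.60 through 1.98 to 4.87 CPM at t0 and from 1.79 through 2.66 to 3.18 CPM at t4. The t2 mice had 1.19, 1.42, 1.82, 2.27 and 2.66 CPM, and the t6 mice had 1.23, 1.26, 2.22, 2.31 and 2.39 CPM. Only the t4 group lay wholly above baseline. Insm1 rose by 0.92 ± 0.34 (log2, edgeR adjusted p = 0.03) in the t0 group and by 1.02 ± 0.34 (adjusted p = 0.036) in the t4 group. The changes in the t2 and t6 groups were 0.56 ± 0.36 (adjusted p = 0.27) and 0.57 ± 0.35 (adjusted p = 0.36). The t0 call was lost without t0 mouse 374, at a log2 change of 0.59 (adjusted p = 0.15), or without baseline mouse 344 or 356, and the t4 call without any of baseline mice 344, 345 and 356 and t4 mice 336, 348 and 377. Both calls were also lost with no filter on low counts (adjusted p = 0.057 and 0.068) and without the libraries of high thyroid marker content (adjusted p = 0.091 and 0.16).

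The convertase Pcsk1, at chr13:75089987-75132499, and the chaperone Scg5, at chr2:113776313-113829092, were called at no time. Pcsk1 ran from 1.46 to 3.33 CPM at baseline and from 0.518 to 5.51 CPM over the exposed groups. Its log2 changes were 0.38 ± 0.44, 0.30 ± 0.45, 0.48 ± 0.44 and 0.03 ± 0.46 in time order, with edgeR adjusted p from 0.46 to 0.98. Scg5 ran from 0.728 to 3.49 CPM at baseline and from 0.620 to 3.82 CPM in exposed mice. Its log2 changes were 0.42 ± 0.40, 0.48 ± 0.42, 0.56 ± 0.40 and 0.67 ± 0.42, with adjusted p from 0.34 to 0.44. Changes of the size seen for Syp would not be detectable at these standard errors.

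**Figure D2:**
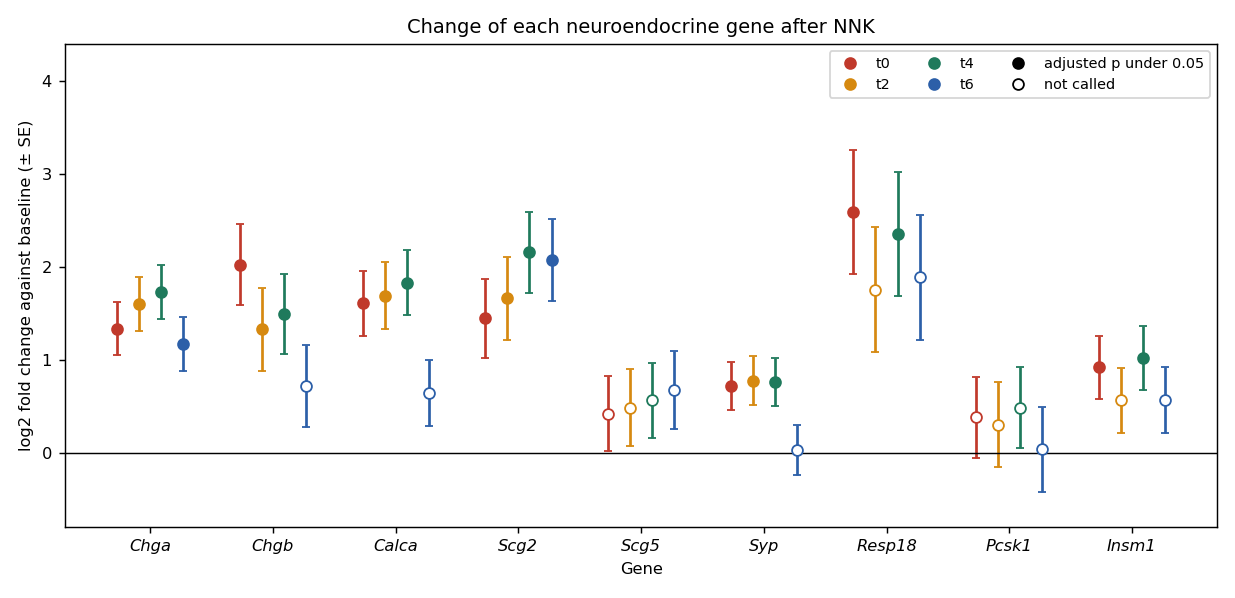
Log2 fold change (± SE) of each gene against baseline at t0, t2, t4 and t6; filled points have an edgeR adjusted p under 0.05. Chga and Scg2 are filled at all 4 times, and Scg5 and Pcsk1 at none.

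Between the exposed groups, few of the 9 genes were called. No gene was called between t2 and t0 or between t4 and t0 by edgeR, where 29.9% and 33.4% of all genes were, and none of the 9 had an unadjusted p under 0.05 in either. DESeq2 and limma also called 0 in both. Without t2 mouse 339, Chgb was called between t2 and t0. At t6, 3 of 9 were lower than at t0, against 20.5% of genes. Chgb fell by 1.31 ± 0.45 on the log2 scale (edgeR adjusted p = 0.022), Calca by 0.97 ± 0.36 (adjusted p = 0.035) and Syp by 0.69 ± 0.27 (adjusted p = 0.045), each with all 5 t6 mice below the t0 mean and overlapping ranges. The log2 change of Scg2 over the same interval was 0.63 ± 0.43 (adjusted p = 0.26) and that of Chga was -0.16 ± 0.29 (adjusted p = 0.7). Without t0 mouse 374 or t6 mouse 368 none of the 9 was called, and without t0 mouse 357 or t6 mouse 341, 349, 365 or 366 only 1 was. The same count was 0 without the libraries of high thyroid marker content. A straight line over months 0 to 6 was called for 0 of 9, against 32.4% of genes, and for Chgb alone with DESeq2. Chgb was also the 1 gene with an unadjusted p under 0.05 for this trend (0.027, edgeR). Any difference among the 5 groups was called for 6 of 9, against 56.8% of genes.

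Some of the 9 genes varied together between mice of 1 group. Of the t0 mice, mouse 374 had the highest value in 8 of 9 genes and mouse 367 the lowest in 7 of 9. The other groups were less uniform. No mouse there was highest in more than 5 genes (baseline mouse 343) or lowest in more than 4 (t6 mice 349 and 368). Mouse 339 of t2 was highest in 4 and lowest in 3. Such ranks were not examined over all genes. The summed level of the 9 genes was 23.1 ± 4.33 CPM (SD, n = 6) at baseline, 57.0 ± 23.3 (n = 6) at t0, 59.4 ± 16.8 (n = 5) at t2, 69.1 ± 21.6 (n = 6) at t4 and 46.3 ± 10.3 (n = 5) at t6. Only t0 mouse 367, at 30.7 CPM, and t2 mouse 360, at 30.6 CPM, were below the highest baseline mouse, at 31.3 CPM. After each group's mean was removed, log2 levels of the 36 pairs of genes had a median Pearson r of 0.38 over 28 libraries, from -0.175 for Syp and Pcsk1 to 0.734 for Chga and Chgb. Other pairs of genes were not examined. Values of 1 library share its depth and RNA quality, and these correlations are a description.

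Outside the 9, Pcsk2, the second neuroendocrine convertase, was called higher at all 4 times, by 1.85 ± 0.53, 2.59 ± 0.55, 2.54 ± 0.54 and 2.36 ± 0.55 on the log2 scale (edgeR adjusted p = 0.0056, 0.002, 0.0017 and 0.0064). Its baseline level was 0 to 0.735 CPM, so it passed the filter only through exposed mice. With no filter all 4 calls held (adjusted p from 0.0023 to 0.0085), and the t6 call was lost without the libraries of high thyroid marker content (adjusted p = 0.052). Calcb was called at t0 (log2 change 3.09 ± 0.78, adjusted p = 0.0021) and t4 (2.26 ± 0.76, adjusted p = 0.037), with single mice far apart: 5.88 to 48.1 CPM at t0 and 2.20 to 48.2 CPM at t4. The t4 call was lost without t4 mouse 336, or without any of 5 baseline mice.

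**Figure D3:**
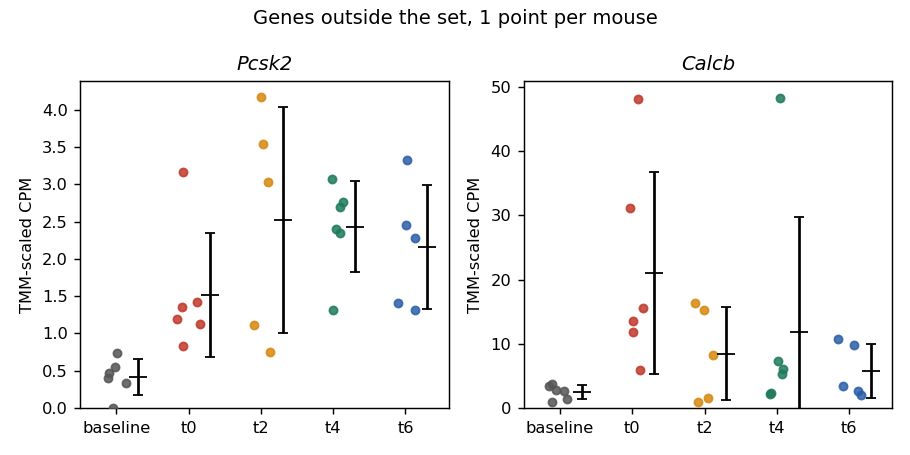
TMM-scaled CPM of Pcsk2 and Calcb in each knockout mouse by group, with the mean ± SD (the axis stops at 0, which hides the lower end of the bar of Calcb at t4). Pcsk2 lies above the highest baseline mouse in every exposed mouse, and Calcb spreads from near baseline to about 48 CPM at t0 and t4.

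Other genes of the granule pathway did not move as 1 group. Of all genes tested, 23.3%, 11.2%, 10% and 4.54% rose in time order and 22.3%, 8.73%, 9.56% and 4.29% fell. Of 14 dense-core granule and prohormone processing genes, 11 were tested: in time order 4, 3, 1 and 2 of them rose and 5, 4, 4 and 3 fell. The genes that rose were Pcsk2, Cpe (carboxypeptidase E, log2 change 1.54 ± 0.44 at t0, edgeR adjusted p = 0.0054), Ptprn (a granule membrane protein, 1.39 ± 0.47, adjusted p = 0.017) and Furin (0.68 ± 0.24, adjusted p = 0.024). Those that fell at t0 were Cadps2 (a factor of granule priming, -1.25 ± 0.12), Pam (the peptide-amidating enzyme, -1.02 ± 0.11), Ptprn2 (-1.81 ± 0.24), Cpd (-0.69 ± 0.09) and Pclo (-0.64 ± 0.15), with adjusted p from 6.4e-09 to 0.00073. These 5 had baseline means of 41.4 to 453 CPM, against 0.415 to 59.4 CPM for those that rose. The t0 call of Ptprn was lost without t0 mouse 374 (edgeR adjusted p = 0.056), and its t2 call without t2 mouse 339 (adjusted p = 0.11). Ptprn reached 1 CPM in 4 of 6 baseline libraries, so it needed exposed mice to pass the filter. With no filter its t0 and t2 calls held (edgeR adjusted p = 0.025 and 0.0062). Cpe lost its t6 call without any of baseline mice 343, 352 and 355 and t6 mouse 368 (adjusted p up to 0.096). Of 18 exocytosis genes, 13 were tested: in time order 1, 1, 1 and 0 of them rose and 3, 1, 2 and 0 fell. Rph3al fell by 1.19 ± 0.17 (edgeR adjusted p = 3.4e-06), Rims2 by 1.95 ± 0.48 (adjusted p = 0.0015) and Sytl4 by 0.42 ± 0.14 (adjusted p = 0.014) on the log2 scale at t0. Sytl4 was also lower at t2 (-0.62 ± 0.15, adjusted p = 0.0042) and t4 (-0.71 ± 0.14, adjusted p = 0.0008), and Rims2 at t4 (-1.71 ± 0.48, adjusted p = 0.013). Syt1, a calcium sensor of vesicle release, rose at t2 (1.502 ± 0.46, adjusted p = 0.022) and t4 (1.29 ± 0.45, adjusted p = 0.042). Syt1 passed the filter only through exposed mice. Its t2 call was lost without baseline mouse 356 or t2 mouse 334 (adjusted p up to 0.057), and its t4 call without any of baseline mice 345, 352, 355 and 356 and t4 mice 336, 340, 348 and 377 (adjusted p up to 0.096). Of 15 neuroendocrine transcription factors and Notch-side genes, 10 were tested: Dll1 rose (0.78 ± 0.26, adjusted p = 0.016) and Foxa2 fell (-2.03 ± 0.29, adjusted p = 2.4e-06) at t0. Hes6 rose at t2 (0.73 ± 0.25, adjusted p = 0.039) and t4 (0.69 ± 0.24, adjusted p = 0.043), calls that were lost without any of 5 baseline mice, t2 mouse 334 or 360, or t4 mouse 335, 340 or 348 (adjusted p up to 0.12). Isl1 fell at t4 (-0.97 ± 0.20, adjusted p = 0.0014). Neurod1, Nkx2-2 and Dll3 were below the filter. Among 19 peptide genes, 5 were tested: Edn1 rose at t0 (1.90 ± 0.68, adjusted p = 0.025), a call lost without baseline mouse 355 or t0 mouse 367 (adjusted p up to 0.052), beside Calcb. Penk was just past the threshold at t4 (-1.61 ± 0.58, adjusted p = 0.049), and this call was lost in 19 omissions of a single library, including every baseline library (adjusted p up to 0.11). Sst and Pyy had 0 counts in every library. None of the 4 tested CGRP and calcitonin receptor genes was called against baseline by edgeR.

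The other marker genes of neuroendocrine cells were mixed. Of 13 listed, 11 were tested, of which 3 fell at t0, where 22.3% of all genes did. Another 1 rose and 1 fell at each later time, where 11.2%, 10% and 4.54% of all genes rose and 8.73%, 9.56% and 4.29% fell. The marker gene that rose was Dner at t2 (2.24 ± 0.53, edgeR adjusted p = 0.0041) and Stmn2, a neuronal microtubule regulator, at t4 (2.75 ± 0.75, adjusted p = 0.011) and t6 (3.19 ± 0.76, adjusted p = 0.0078). Dner was uneven at t2, from 1.33 to 11.6 CPM with a mean of 4.24 ± 4.2 (SD), against at most 1.97 CPM at baseline. Dner reached 1 CPM in 1 of 6 baseline libraries, so it needed exposed mice to pass the filter. Its call was not tried with no filter or without single libraries. Stmn2 was at most 0.291 CPM at baseline and passed the filter only through later groups (1, 2 and 3 libraries of t2, t4 and t6). With no filter both calls held (adjusted p = 0.016 and 0.012), and both were lost without the libraries of high thyroid marker content, with adjusted p = 0.071 and 0.096. Bex2 fell by 2.12 ± 0.29 (log2, edgeR adjusted p = 1.9e-06) at t0 and was called lower at each later time, the calls of t4 and t6 being lost without the libraries of high thyroid marker content. Eno2 (neuron-specific enolase) and Cd24a fell at t0, by 1.16 ± 0.29 (adjusted p = 0.0017) and 1.39 ± 0.21 (adjusted p = 4.3e-06), and were called at no later time. Cd24a had a baseline mean of 1430 CPM. Uchl1 and Ddc were called at no time. Of 14 signals and sensors of these cells, 10 were tested: in time order 3, 2, 2 and 0 rose and 2, 1, 1 and 1 fell. At t0, 23.3% of all genes rose and 22.3% fell. Notch1 rose at t0 (1.66 ± 0.15, adjusted p = 4.8e-09), t2 and t4, the stretch sensor Piezo1 rose at t0 (1.16 ± 0.26, adjusted p = 0.00056), t2 and t4, Notch2 fell at all 4 times (-0.70 ± 0.14 at t0, adjusted p = 0.00021) and Jag1 fell at t0 (-0.40 ± 0.14, adjusted p = 0.021). The t2 call of Piezo1 was lost without any of baseline mice 343, 345 and 356 and t2 mice 334 and 339 (adjusted p up to 0.083), that of Notch1 without t2 mouse 334 (adjusted p = 0.051), and the t0 call of Jag1 without baseline mouse 343 or 344 or t0 mouse 367 or 374 (adjusted p up to 0.065) or with library totals in place of TMM (adjusted p = 0.37).

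**Figure D4:**
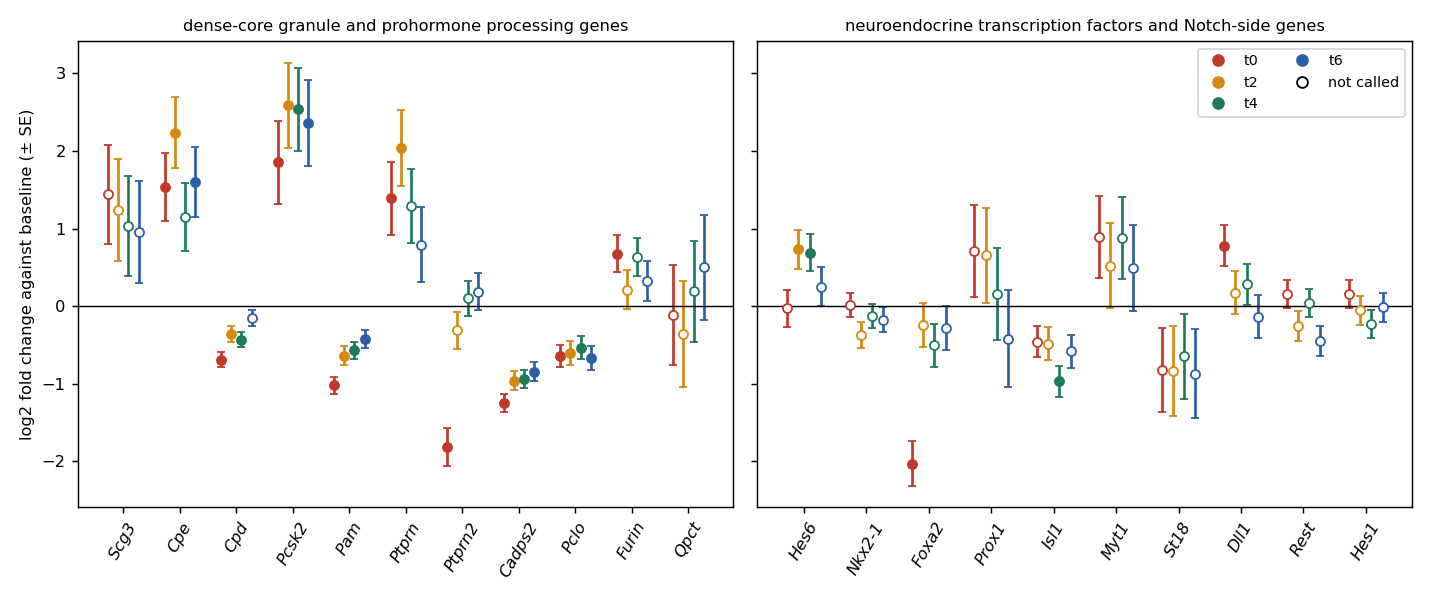
Log2 fold change (± SE) against baseline of the tested granule and processing genes (left) and the tested transcription factors and Notch-side genes (right); filled points have an edgeR adjusted p under 0.05. Pcsk2 is filled and above 0 at all 4 times, Cadps2, Pam and Pclo are filled and below 0 at all 4.

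Among the genes whose log2 levels over the 28 libraries were most like Chga were Pcsk2 (Pearson r 0.884, Spearman rho 0.88), Eif4e3, Fetub, Insrr and Slc26a9 (0.762 to 0.794). Among those most like Scg2 were Meis2 (0.865, 0.827), Padi4, B4galnt4, St8sia5 and Pcsk2 (0.759 to 0.791). Pcsk2 was on both lists. Only genes that passed the filter were compared, and Pcsk2 and St8sia5 passed it only through exposed mice. B4galnt4, Padi4 and Insrr reached 1 CPM in 2, 3 and 4 baseline libraries, so they also needed exposed mice to pass. The libraries share groups, so these values describe likeness and carry no test.

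Markers of other cell types moved too, and their part in the result was not tested unless a value is given. None of the 12 neuron markers, the highest of which were Chat and Tubb3, passed the filter, and they summed to 0.402 to 4.63 CPM in every library. The thyroid, which holds Calca- and Chga-positive C cells and touches the trachea, left follicular markers (7 genes, among them Tg and Iyd). Their sum, carried by Tg, was highest before exposure, while single members were not: Iyd had a mean of 5.72 CPM at baseline and 7.60 CPM at t6, and Foxe1 1.06 CPM at baseline and 2.97 CPM at t0. The sum ran from 21.1 through a median of 116 to 1090 CPM at baseline, 5.32 to 190 at t0, 7.69 to 23.5 at t2, 6.92 to 157 at t4 and 8.78 to 187 at t6. Without the 6 libraries over 100 CPM of thyroid markers (3 at baseline), the median log2 change of the 9 genes was 1.57, 1.53, 1.80 and 1.14 at the 4 times, with all 9 above 0 at each, and 6, 3, 3 and 1 were called. This alternative was chosen after seeing the data and leaves 3 baseline libraries. Among the list genes named above it also ended the calls of Hes6, Syt1, Sytl4, Rims2, Ptprn, Penk, Edn1 and Jag1. The calls of Calcb at t4, of Cpe and Pam at t6, and of Piezo1 and Notch1 at t2 and t4 were lost too. Furin, Pclo and Dner were not followed under this alternative. Of 6 skeletal muscle markers, led by Acta1 and Ckm, 5 were called higher at t0 and all 6 at each later time, though Ckm, Mb, Myh1 and Myh2 passed the filter only through exposed mice (summed level at baseline 1.12 to 9.10 CPM, at t0 1.74 to 126, at t2 91.4 to 1140, at t4 13.0 to 65.8, at t6 13.4 to 1160). Tnnt3 reached 1 CPM in 1 baseline library and also needed exposed mice to pass. At t0, ciliated markers had a sum of 234 to 1060 CPM against 1470 to 2090 at baseline, club cell markers 15200 to 24000 against 65700 to 97500, and basal markers 877 to 1380 against 208 to 370. Macrophage markers summed to 42.5 to 79.0 CPM at baseline and 259 to 934 CPM at t0. Glia markers summed to 5.06 to 18.1 CPM over all libraries and parathyroid markers to at most 2.96 CPM. Tuft cell markers had a median of 74.3 CPM at baseline and 41.0, 35.4, 37.2 and 25.2 CPM at the later times.

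**Figure D5:**
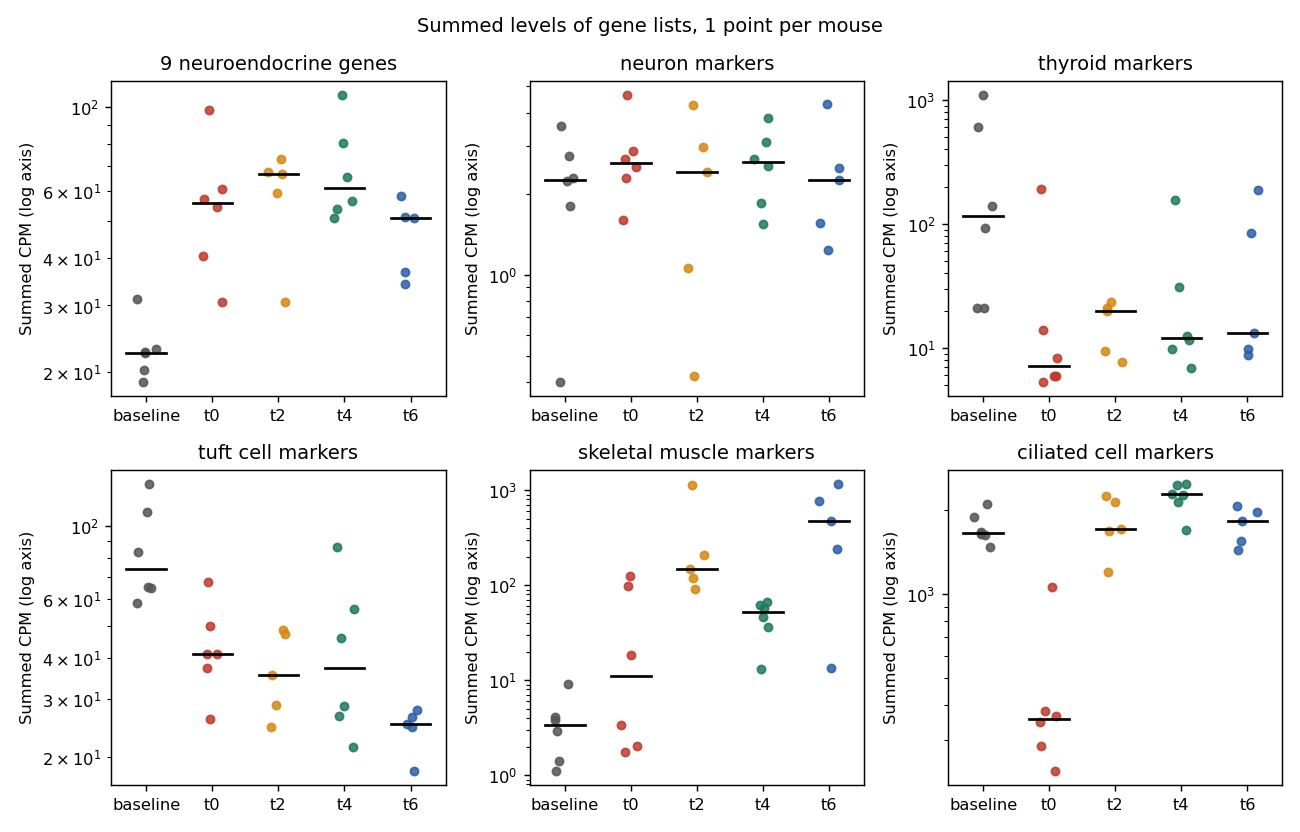
Summed CPM on a log axis of the 9 genes and of 5 marker lists in each knockout mouse, with the group median as a line. The 9 genes lie higher after exposure, neuron markers stay below 5 CPM throughout, thyroid markers have their highest sums at baseline, and skeletal muscle markers have their highest sums at t2 and t6.

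In the 6 wild-type libraries, with totals of 10806553 to 23992502 estimated counts, levels can be compared between genes per length. Calca was the highest at 7.95 ± 2.61 TPM (length-scaled share of transcripts; SD, n = 6), followed by Chga at 4.33 ± 3.37, Scg5 at 1.86 ± 0.743, Scg2 at 1.74 ± 1.08, Syp at 1.04 ± 0.494, Pcsk1 at 0.890 ± 0.735, Resp18 at 0.465 ± 0.361, Insm1 at 0.377 ± 0.192 and Chgb at 0.238 ± 0.114. Neighbours in this order differed by less than the larger of their SDs, except Calca and Chga. Their order was not the same in every mouse: in mouse 289 Chga was at 10.34 TPM and Calca at 6.14 TPM. In CPM, which does not correct for length, Chga had the higher mean (7.11 against 4.61). Gprc5a was at 120 ± 54.8 TPM. The thyroid marker Tg ran from 9.89 through a median of 286 to 2503 TPM in the same libraries, and the part of thyroid C cells in the levels of Calca and Chga was not tested. The knockout and wild-type files name different software versions in the submitters' processing notes, so no test between genotypes was made.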

How the data were processed

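RNA from tracheal brushings was sequenced as poly-A libraries on an Ion Proton, from samples with RNA integrity of at least 7, per the labels' protocols. The knockout table holds estimated counts, deposited by the authors under a name that says RPKM; 76.3% of its values above 0 are whole numbers (tolerance 0.01), so its values were taken as estimated counts and rounded to whole numbers. The wild-type files hold the authors' estimated counts and TPM. STAR 2.4.1d, Bowtie2 2.1.0 and Partek with mm10, and STAR 2.7.0f and RSEM 1.3.1 with GRCm38, are named in the submitters' processing notes. No column belonged to another series.

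Genes with at least 1 CPM in 5 libraries (14847 of 24223) were scaled by TMM and fitted in edgeR 4.0.16 (R 4.3.3; limma 3.58.1; DESeq2 1.42.0) over all 28 knockout libraries, with 1 mean per group and quasi-likelihood tests, two-sided. Standard errors are the log2 change divided by the root of F. Adjusted p-values run over all genes tested. Likeness used log2(CPM + 0.5). Values per sample rest on library totals of 15625276 to 37609816 counts. Each library is a separate mouse. Alternatives were other scaling, filters, tools and samples, sex as a covariate, and each library left out. The fit was tested on simulated data. The 9 genes and all lists were chosen with earlier results of these data known. The text names all 9 genes, up to 4 genes of each pathway list by the F test, and genes among the 6 most like Chga and Scg2 (1 gene of the lists is not reported here); Cpe, Ptprn, Furin, Pclo, Dner, Neurod1, Nkx2-2, Dll3, Uchl1, Ddc, Sst and Pyy were named after their values were seen.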

Additional observations from a re-analysis of the deposited data

Results flagged for a closer look

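In 3 of the 45 sets of values (9 genes in 5 groups), 1 mouse stood apart from the others of its group by the gap test used, which chance would flag in about 1 set in 20. These were Calca in t2 mouse 358 at 35.5 CPM, Scg5 in baseline mouse 356 at 3.49 CPM and Insm1 in t0 mouse 374 at 4.87 CPM. Baseline mouse 356 also had the highest sum of thyroid markers, 1090 CPM, and the part of those cells in its Scg5 value was not tested.

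The change from baseline differed between t6 and t0 in 3 genes by the edgeR test of that difference: Chgb (log2 -1.31), Calca (-0.97) and Syp (-0.69).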

How the results depend on the processing

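Across the comparisons with baseline, Chga and Scg2 at all 4 times, and Calca at t0, t2 and t4, kept their calls when any single library was left out. So did Chgb and Resp18 at t0 and t4, with edgeR adjusted p up to 0.042 and 0.031 at t4. The t2 call of Chgb and the calls of Syp and Insm1 did not hold in every omission. Against baseline, counts of called genes ran from 6 to 7 at t0, from 3 to 5 at t2 (3 without baseline mouse 344, 345, 352 or 356), from 5 to 7 at t4 and from 2 to 3 at t6 over these omissions. Between t2 and t0 they ran from 0 to 1, between t4 and t0 from 0 to 0, between t6 and t0 from 0 to 3 (1 without t0 mouse 357 or t6 mouse 341, 349, 365 or 366), for the F test from 6 to 6 and for the trend from 0 to 1 (1 without t0 359, t2 339, t2 360, t4 377 or t6 341). Fitting only the 2 groups compared gave 2 calls at t2. With sex as a covariate 7, 5, 7 and 2 of the 9 were called against baseline in time order, and with no filter beyond 1 count 5, 4, 5 and 2. Without the libraries over 100 CPM of thyroid markers there were 3 at t2, 3 at t4, 1 at t6 and 0 between t6 and t0. Leaving out haemoglobin genes and Rn45s gave 1 between t6 and t0, and DESeq2 gave 1 for the trend. Without the 4 libraries that stood apart, the log2 change of Chga between t6 and t0 became 0.013 and that of Syp at t6 became -0.060. Leaving out single libraries gave the first values from -0.28 to 0.064 and the second from -0.10 to 0.17, and Pcsk1 from -0.0016 to 0.57 at t2 and from -0.28 to 0.19 at t6. The cause was not tested. Library totals in place of TMM shifted the median of all genes to 0.194 at t0 and 0.123 at t2. The share of Calca in the wild-type sum of the 9 genes was 42.8% in TPM and 19.3% in CPM, which does not correct for length. The settings other than omissions of a single library, which include the 2 that left out several libraries, gave 1020 single-gene values. Of these, 933 kept direction and side of the threshold, 80 lost their call, 5 gained one and 2 reversed. Both reversals came without the 4 libraries that stood apart. No paired analysis was possible because animal numbers differ in every group. Sparse counts (0 to 122 for Resp18) limit what these libraries can resolve.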
